A study of Mus musculus with 12 samples.

Results

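The 10 genes described here belong to the hypoxia-inducible factor (HIF) pathway and its angiogenic and metabolic targets: Hif1a, Egln1, Egln3, Vegfa, Pgf, Adm, Igfbp1, Bnip3, Pdk1 and Ndrg1. They were chosen by symbol, with their library-scaled counts across the 4 groups of the study in view, so their levels and differences between groups are a description and no test of them is offered as evidence. All 10 were found among the 55487 gene identifiers listed, and all 10 passed the filter on low counts, as did 13535 genes in all. RNA was measured in primary hepatocytes of mouse liver in culture, with 3 libraries in each of 4 groups. Control cells were left untreated. FAC cells received FAC, given in the labels by these letters only. Lip-1+FAC cells were pretreated on day 2 of culture with liproxstatin-1 (Lip-1), described in the labels as scavenging lipid reactive oxygen species (ROS), and then received FAC. MT+FAC cells were pretreated with Mito-TEMPO (MT), described as scavenging mitochondrial ROS, and then received FAC. No group received a scavenger without FAC, so an effect of a scavenger on the response to FAC and an effect of the scavenger by itself cannot be told apart. The labels give no strain, genotype, dose or duration, and do not say whether replicates came from separate animals or cultures, so the errors given measure the spread between these libraries, which may be technical.

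HIF is a transcription factor made of an oxygen-regulated alpha subunit (HIF-1 alpha from Hif1a, or a relative) and a constant beta subunit. Prolyl hydroxylases of the EGLN family, which need iron, oxygen and 2-oxoglutarate, mark the alpha subunit for destruction by the VHL ubiquitin ligase, and HIF that escapes this step binds short DNA elements with the core letters ACGTG or GCGTG. Its targets include EGLN3, which closes a feedback loop, angiogenic ligands such as VEGF-A, glycolytic enzymes, and mitochondrial regulators such as BNIP3 and PDK1. Because alpha subunits are controlled mainly as proteins, the messenger RNA of Hif1a is not a measure of HIF activity, and no protein was measured here.

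The promoter windows that follow belong to 6 of the genes that were lower after both pretreatments than after FAC alone, and 5 of them hold such core letters. They cover the hydroxylase Egln3, the ligands Adm and Vegfa, the secreted Igfbp1, and the mitochondrial pair Bnip3 and Pdk1. The first Vegfa window is shown as one without a core. Sequences are those of RefSeq on GRCm38.p6, up to 250 bases before the gene's start, read 5′ to 3′ on the gene's strand, and cut where an annotated exon begins. Capitals mark ACGTG or GCGTG, or the same letters read on the other strand (CACGT or CACGC).
Egln3: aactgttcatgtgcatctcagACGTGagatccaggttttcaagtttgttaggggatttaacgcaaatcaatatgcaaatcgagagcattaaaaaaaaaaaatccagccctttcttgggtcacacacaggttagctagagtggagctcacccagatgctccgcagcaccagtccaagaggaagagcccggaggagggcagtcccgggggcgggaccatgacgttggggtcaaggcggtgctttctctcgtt
Vegfa: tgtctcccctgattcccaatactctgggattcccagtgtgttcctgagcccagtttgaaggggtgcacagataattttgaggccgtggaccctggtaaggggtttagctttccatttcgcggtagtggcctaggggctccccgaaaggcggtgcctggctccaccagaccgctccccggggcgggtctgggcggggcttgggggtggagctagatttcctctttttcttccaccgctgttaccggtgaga
Adm: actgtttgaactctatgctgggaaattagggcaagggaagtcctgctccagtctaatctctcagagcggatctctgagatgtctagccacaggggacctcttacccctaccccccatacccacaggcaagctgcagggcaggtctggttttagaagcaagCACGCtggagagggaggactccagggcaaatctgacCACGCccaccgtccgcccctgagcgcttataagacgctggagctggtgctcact
Igfbp1: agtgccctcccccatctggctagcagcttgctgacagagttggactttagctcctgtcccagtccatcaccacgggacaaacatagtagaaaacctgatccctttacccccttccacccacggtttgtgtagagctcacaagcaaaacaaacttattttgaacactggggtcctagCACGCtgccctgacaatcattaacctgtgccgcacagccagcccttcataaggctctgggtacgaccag
Bnip3: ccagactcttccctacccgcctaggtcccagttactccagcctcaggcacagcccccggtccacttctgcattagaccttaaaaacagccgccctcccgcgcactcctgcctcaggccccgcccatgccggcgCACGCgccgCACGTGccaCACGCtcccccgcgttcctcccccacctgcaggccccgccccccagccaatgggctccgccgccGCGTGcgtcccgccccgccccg
Pdk1: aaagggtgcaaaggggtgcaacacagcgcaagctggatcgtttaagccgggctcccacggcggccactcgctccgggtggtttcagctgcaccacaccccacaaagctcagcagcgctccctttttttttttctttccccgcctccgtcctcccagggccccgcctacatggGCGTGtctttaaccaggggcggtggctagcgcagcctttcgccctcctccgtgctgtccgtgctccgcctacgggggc

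The Egln3 window (chr12:54203875-54204124, minus strand) held 1 match, an ACGTG that began 229 bases before the start. The Adm window (chr7:110627407-110627656, plus strand) held 2 matches, both GCGTG on the other strand, at 90 and 54 bases. The Igfbp1 window (chr11:7197537-7197781, plus strand) held 1, at 74 bases. The Bnip3 window (chr7:138909520-138909756, minus strand) held 5 matches, of which 2 were the same palindrome CACGTG read on both strands. The first Pdk1 window (chr2:71872974-71873223, plus strand) held 1, at 78 bases. The first Vegfa window (chr17:46032378-46032627, minus strand) held 0. Of the 10 genes, 9 had a promoter entry, with 12 promoters in all, and each of the 9 had a promoter with a core, 9 promoters in total. The 3 without one were the first of Vegfa and the second of Pgf and of Pdk1. The second Vegfa window held 2 matches. Hif1a and Egln1, which were not called lower after both pretreatments, held 3 and 2 matches. Such short letters are common: of 32851 promoter windows of the same length, 16.6% held ACGTG, 28.2% held GCGTG, 38.6% held either and 16.7% held 2 or more matches. A match is a description of the letters and not a binding site, and binding was not measured.

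Library depth ranged from 22991598 to 31683376 reads assigned to genes, apart from FAC replicate 2 with 52529278, whose file is marked as combined. Levels are given as CPM, read counts scaled to a common library size, after TMM scaling, whose factors lay between 0.989 and 1.01. Hepatocyte markers were abundant in all groups, and all 10 were tested. Their summed level was 20300 to 21000 CPM in control, 19500 to 19800 in FAC, 15100 to 16100 in Lip-1+FAC and 15500 to 17000 in MT+FAC libraries, so it was lower after both pretreatments, beside the lower levels of most of the 10 genes. Alb held much of it, with means of 9620, 9880, 8340 and 8530 CPM. With FAC against control, 0 of the 10 hepatocyte markers were higher and 3 were lower, with a median log2 fold change of 0.0366. Cps1, for one, had means of 1700 CPM in control and 711 CPM in FAC libraries. Of the 10 hepatocyte markers, 7 were lower and 1 higher with Lip-1 against FAC (median −0.347) and 6 and 1 with MT (median −0.326). Shares of all genes called in the same comparisons, for this and the next lists, were 17.5% higher and 19.1% lower with FAC, 20.7% and 19.2% with Lip-1 against FAC, and 21.2% and 19.7% with MT against FAC. The 6 leukocyte markers, Ptprc among them, summed to at most 0.432 CPM and 3 of them were at 0. Endothelial markers, 9 of 10 tested, summed to 41.8 to 44 CPM in control, 41.5 to 41.9 in FAC, 34.3 to 35.6 in Lip-1+FAC and 33.9 to 37.2 in MT+FAC libraries, and Stab2 held most of it, with means of 28.2, 26.5, 17.9 and 19.2 CPM in the 4 groups. Of the 9 endothelial markers tested, 1 was higher and 1 lower after each pretreatment against FAC, with median log2 fold changes of 0.10 with Lip-1 and 0.205 with MT. Stellate and fibroblast markers, 8 of 10 tested, summed to 21.9 to 29.6, 31 to 39.7, 15.4 to 18.9 and 17.4 to 22.5 CPM in the same order. That sum was carried by Reln, with means of 7.46, 16.1, 4.53 and 5.23 CPM, and Acta2, and the collagens Col1a1, Col1a2 and Col3a1 had lower means in FAC than in control. Of the 8 stellate markers tested, 1 was higher and 1 lower in FAC against control, with a median log2 fold change of −0.43, and 2 were lower after each pretreatment against FAC, with medians of 0.131 and 0.286. Cholangiocyte markers, 5 of 6 tested, summed to 58.6 to 69, 98.4 to 123, 110 to 125 and 104 to 145 CPM. In the pretreated groups Spp1 held most of this sum, with means of 40.7, 43.6, 101 and 103 CPM in the 4 groups. Sox9, at 17.4, 53.4, 12 and 15.1 CPM, and Krt19, at 3.96, 9.96, 1.58 and 2.7 CPM, were instead highest in FAC and lowest after pretreatment, as most of the 10 genes were. Of the 5 cholangiocyte markers tested, 4 were higher with FAC and 4 were lower and 1 was higher after each pretreatment against FAC, with median log2 fold changes of 1.32, −2.46 with Lip-1 and −1.88 with MT. Of the macrophage list, all 10 tested, Cd68 made up most of the sum, with 214 to 245, 280 to 311, 106 to 138 and 135 to 164 CPM, whereas the other 9 together held 13.5 to 18.6, 15.7 to 18, 14.9 to 18 and 13.8 to 21.9 CPM. The part of other cell types in the results was not tested. In bulk RNA, fewer cells of a type and less RNA per cell cannot be told apart.

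A gene is said to be called where edgeR's quasi-likelihood test, with Benjamini-Hochberg adjustment over all 13535 genes, gave an adjusted p under 0.05. In FAC against control, 8 of the 10 genes were called higher, beside 17.5% of all genes, led by Igfbp1 at 4.07-fold, Pgf at 2.93-fold and Adm at 2.11-fold. Egln3, Ndrg1, Vegfa, Pdk1 and Hif1a were higher by smaller amounts, and Egln1 and Bnip3 did not differ beyond their spread. After either pretreatment all but Hif1a and Egln1 were lower than in FAC cells, and Hif1a was lower after MT. Pgf was lower by 8.12-fold with Lip-1 and 5.11-fold with MT. Most of them were then also lower than in untreated control cells, with Ndrg1 and Hif1a as the exceptions. The accounts that follow take the genes by role.

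Hif1a (ENSMUSG00000021109, GRCm38 chr12:73901375-73947530) encodes the oxygen-regulated alpha subunit of HIF-1. Its level was 66.9, 68.8 and 74.9 CPM in control, 95.3, 84 and 86.8 in FAC, 82.9, 85.8 and 80.4 in Lip-1+FAC, and 68.1, 73.8 and 80.1 CPM in MT+FAC libraries. The FAC and Lip-1+FAC libraries lay above all control libraries, and the MT+FAC libraries overlapped the control range. The log2 fold change was 0.34 (SE 0.0721) in FAC against control, a 1.26-fold difference and the smallest of the 8 called. It was −0.26 (SE 0.0718) without overlap in MT+FAC against FAC, and in Lip-1+FAC against FAC it was −0.10 with a 95% interval of −0.24 to 0.05. With offsets for GC content and length the Lip-1+FAC value against FAC became −0.23 and passed the threshold. Of the exonic bases of Hif1a, 8.11% are shared with overlapping annotated genes.

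Egln1 (ENSMUSG00000031987, chr8:124908587-124949324) encodes PHD2, the main HIF prolyl hydroxylase in most cells. Its level was 140, 128 and 55.9 CPM in control, 55.8, 78.7 and 149.2 in FAC, 62.1, 65.2 and 84.7 in Lip-1+FAC, and 109, 110 and 59.8 CPM in MT+FAC libraries. All 4 groups overlapped, and the highest library was 2.5 times the lowest within control and 2.67 times within FAC. The pooled SD within groups was 0.583 on the log2 scale, against a median of 0.154 over the genes tested, and was larger than in 99.9% of the 7979 genes with a mean of at least 10 CPM. The log2 difference was −0.20 in FAC against control, with a 95% interval from −1.08 to 0.69, so a change of 2-fold in the lower direction was within the interval. Intervals of the other 5 comparisons of Egln1 also included 0.

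Egln3 (ENSMUSG00000035105, chr12:54178981-54203860), whose promoter is printed above, encodes PHD3, a prolyl hydroxylase that is itself a HIF target. Its level was 72.7, 62.9 and 62.9 CPM in control, 117, 128 and 136 in FAC, 26.2, 29.7 and 37.7 in Lip-1+FAC, and 35, 53.4 and 41.3 CPM in MT+FAC libraries. FAC libraries were above and both pretreated groups below all control libraries. Egln3 had a log2 fold change of 0.94 (SE 0.153) in FAC against control, −2.03 (SE 0.16) in Lip-1+FAC against FAC and −1.55 (SE 0.156) in MT+FAC against FAC. Egln3 thus had pretreated groups that were separate from FAC and from control, and Egln1 had groups that overlapped throughout.

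**Figure D1:**
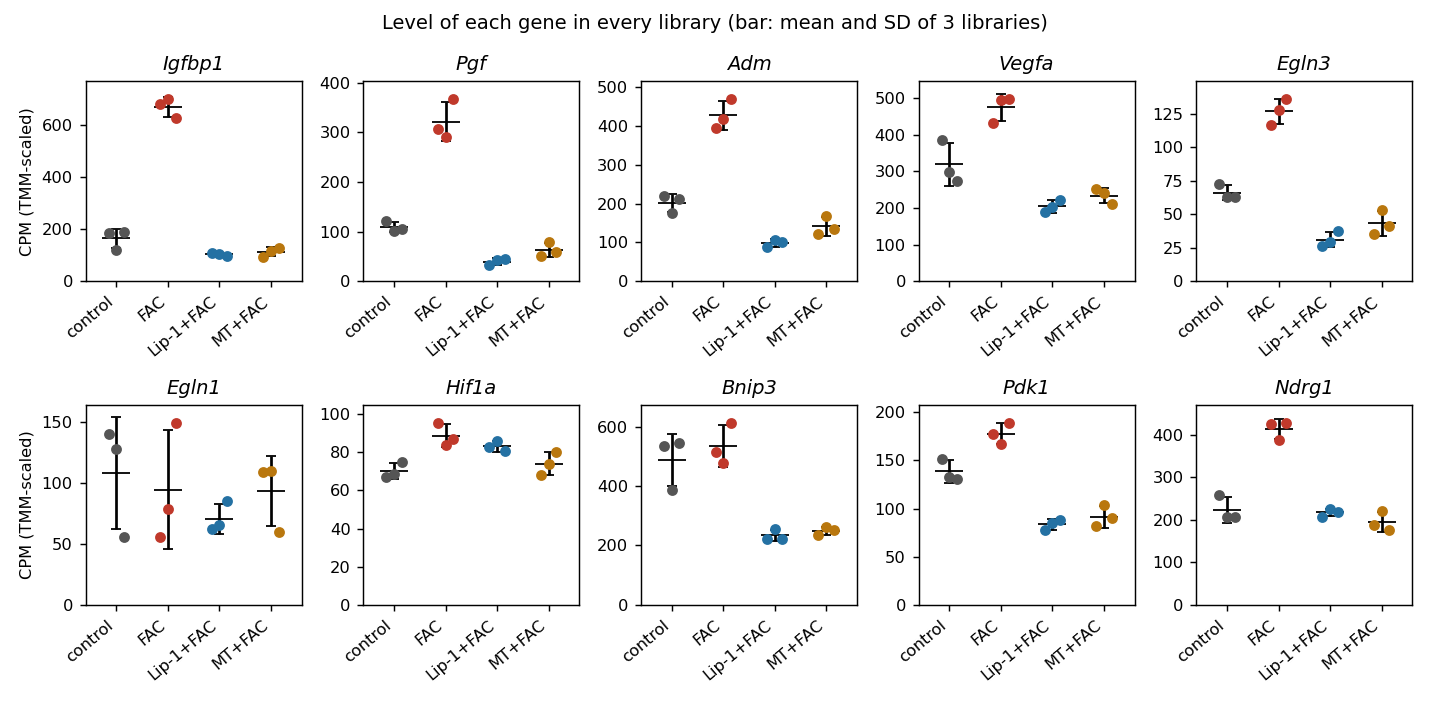
Level of each of the 10 genes in every library, in TMM-scaled CPM from 0, by group (points: 3 libraries; horizontal bar and whiskers: mean and SD). FAC libraries lie above all others for Igfbp1, Pgf, Adm, Vegfa, Egln3, Pdk1 and Ndrg1, whereas Egln1 overlaps in all groups and Bnip3 overlaps between control and FAC.

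Vegfa (ENSMUSG00000023951, chr17:46016993-46032369) encodes the principal ligand for endothelial growth and permeability. Its level was 385, 299 and 273 CPM in control, 433, 495 and 497 in FAC, 189, 202 and 222 in Lip-1+FAC, and 251, 240 and 211 CPM in MT+FAC libraries. FAC libraries were above all control libraries, and all 6 pretreated libraries were below them. Vegfa had a log2 fold change of 0.58 (SE 0.116), or 1.49-fold, in FAC against control, −1.22 (SE 0.117) in Lip-1+FAC against FAC and −1.02 (SE 0.117) in MT+FAC against FAC.

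Pgf (ENSMUSG00000004791, chr12:85166635-85177790) encodes placental growth factor, a VEGF relative that binds the receptor FLT1. Its level was 122, 102 and 105 CPM in control, 308, 291 and 367 in FAC, 31.8, 42.4 and 44.9 in Lip-1+FAC, and 51.4, 78.7 and 58.5 CPM in MT+FAC libraries. No library of any group reached into the range of another group, in the order FAC, control, MT+FAC, Lip-1+FAC. Against control, FAC cells had a log2 fold change of 1.55 (SE 0.174) in Pgf, which was −3.02 (SE 0.186) in Lip-1+FAC against FAC, where Pgf had the largest difference of the 10 genes. The MT+FAC value against FAC was −2.35 (SE 0.18).

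Adm (ENSMUSG00000030790, chr7:110627661-110629820) encodes adrenomedullin, a secreted vasodilator peptide. Its level was 219, 176 and 213 CPM in control, 395, 419 and 469 in FAC, 88.3, 106 and 102 in Lip-1+FAC, and 121, 169 and 134 CPM in MT+FAC libraries. As with Pgf, the 4 groups had separate ranges in the same order. Adm had a log2 fold change of 1.07 (SE 0.126) in FAC against control, −2.11 (SE 0.13) in Lip-1+FAC against FAC and −1.60 (SE 0.127) in MT+FAC against FAC.

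Igfbp1 (ENSMUSG00000020429, chr11:7197782-7202546) encodes a liver-secreted binding protein of insulin-like growth factors, which responds to insulin, stress and hypoxia. Its level was 184, 122 and 189 CPM in control, 682, 701 and 629 in FAC, 109, 106 and 95.9 in Lip-1+FAC, and 93.7, 118 and 128 CPM in MT+FAC libraries. The lowest FAC library was far above the highest control library, and the Lip-1+FAC libraries lay below all control libraries. The highest MT+FAC library, at 128 CPM, was above the lowest control library, at 122 CPM. The log2 fold change was 2.02 (SE 0.166) in FAC against control, the largest of the 10, with −2.69 (SE 0.171) in Lip-1+FAC against FAC and −2.57 (SE 0.17) in MT+FAC against FAC.

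Bnip3 (ENSMUSG00000078566, chr7:138890836-138909519) encodes a mitochondrial outer-membrane protein that promotes mitophagy, the removal of mitochondria. Its level was 533, 388 and 543 CPM in control, 513, 476 and 612 in FAC, 222, 256 and 223 in Lip-1+FAC, and 235, 261 and 253 CPM in MT+FAC libraries. Control and FAC libraries overlapped, and all 6 pretreated libraries were below both. The log2 difference in FAC against control was 0.13 (SE 0.126), with a 95% interval of −0.12 to 0.38. It was −1.19 (SE 0.128) in Lip-1+FAC and −1.09 (SE 0.128) in MT+FAC against FAC. The level of Bnip3 is uncertain, because 22.3% of its exonic bases overlap Gm45507 and 5 annotated genes carry stretches of at least 200 bases that are at least 95% identical to its transcripts. With the stranded columns summed, the values against FAC were −0.98 for Lip-1+FAC and −0.86 for MT+FAC.

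Pdk1 (ENSMUSG00000006494, chr2:71873224-71903858) encodes a kinase that inhibits pyruvate dehydrogenase and so limits the entry of pyruvate into the citric acid cycle. Its level was 151.9, 133 and 131 CPM in control, 177, 167 and 189 in FAC, 77.6, 85.1 and 88.3 in Lip-1+FAC, and 81.5, 104 and 89.8 CPM in MT+FAC libraries. The FAC range was above and the pretreated ranges were below that of control, without overlap. Pdk1 had a log2 fold change of 0.36 (SE 0.0838) in FAC against control, −1.09 (SE 0.0852) in Lip-1+FAC against FAC and −0.96 (SE 0.0847) in MT+FAC against FAC. Bnip3 and Pdk1 thus combined a difference of at most 1.28-fold with FAC with levels at least 1.94-fold lower in both pretreated groups than in FAC.

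Ndrg1 (ENSMUSG00000005125, chr15:66929318-66969640) encodes a stress-responsive protein induced by hypoxia and by loss of iron. Its level was 259, 207 and 206 CPM in control, 426, 387 and 428 in FAC, 208, 226 and 219 in Lip-1+FAC, and 189, 222 and 177 CPM in MT+FAC libraries. FAC libraries stood above all others, and the remaining 3 groups overlapped. Ndrg1 had a log2 fold change of 0.89 (SE 0.0927) in FAC against control, −0.93 (SE 0.0928) in Lip-1+FAC against FAC and −1.08 (SE 0.093) in MT+FAC against FAC. Of its exonic bases 8.43% overlap other annotated genes, among them Gm17035, which shares 336 bases at 99.7% identity.

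The counts of the 10 genes called in each comparison are set beside the share of all 13535 genes called in the same direction. Since these contrasts were in view when the genes were picked, nothing is read from the counts. In FAC against control, 8 were higher (17.5% of all genes) and 0 lower (19.1%), with 0 lower also at an unadjusted p under 0.05 and by DESeq2. The median log2 fold change of the 10 was 0.73 against −0.00613 over all genes. In Lip-1+FAC against FAC, 0 were higher (20.7%) and 8 lower (19.2%), with a median of −1.20. For MT+FAC against FAC, 0 were higher (21.2%) and 9 lower (19.7%), with a median of −1.09. The counts of 0 higher in these 2 comparisons were also 0 unadjusted and by DESeq2. Both pretreatment comparisons and FAC against control use the same FAC libraries, so their values are not independent of each other.

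**Figure D2:**
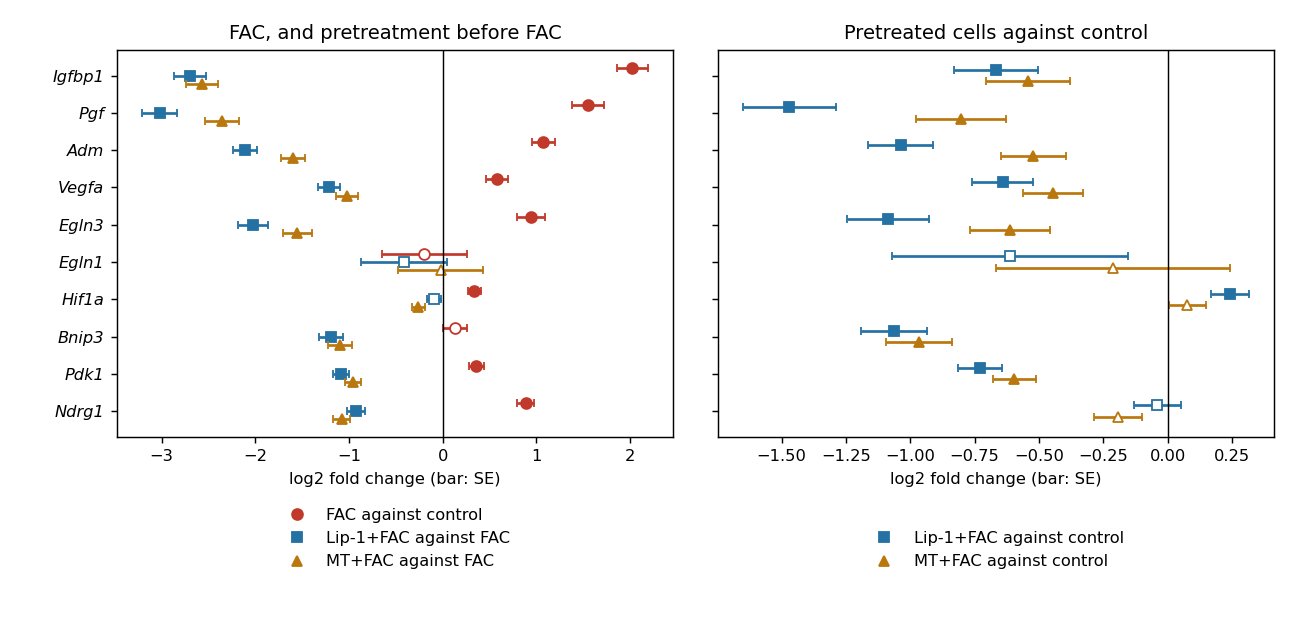
Log2 fold changes of the 10 genes (points) with their SE (bars) in 5 comparisons; filled points passed the threshold of 0.05 after adjustment over all genes and open points did not. In Lip-1+FAC against control 7 filled points lie left of 0 (14.8% of all genes were called lower), and Ndrg1 lies at −0.04. On the right of 0 lies 1 filled point, Hif1a (15.4% of all genes were called higher). Against FAC 8 filled points of Lip-1+FAC lie left of 0 (19.2% of all genes were called lower).

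The pretreated groups were then set against each other, a comparison of a lipid ROS scavenger with a mitochondrial ROS scavenger in cells that also received FAC. None of the 10 genes passed the threshold in MT+FAC against Lip-1+FAC, where 0.465% of all genes were called higher and 0.879% lower. At an unadjusted p under 0.05, 3 were higher and 1 lower, and DESeq2 called 3, all higher: Egln3, Pgf and Adm. The log2 difference of Pgf was 0.67 (SE 0.179), with a 95% interval of 0.32 to 1.02 and no overlap between the groups. That of Adm was 0.52 (SE 0.127), with an interval of 0.27 to 0.76 and no overlap. It passed the threshold when MT+FAC replicate 1 was left out, at 0.62, and without a filter on low counts, at 0.52. Egln3 differed by 0.47 (interval 0.16 to 0.79) with overlapping libraries and passed without a filter, at 0.48. Hif1a differed in the other direction, by −0.17 (interval −0.31 to −0.03), and its groups did not overlap. For Igfbp1, Bnip3, Pdk1, Vegfa and Ndrg1 the intervals were −0.20 to 0.44, −0.15 to 0.35, −0.03 to 0.30, −0.03 to 0.43 and −0.33 to 0.03, so that differences up to these bounds could not be told from 0. For Egln1 the interval ran from −0.50 to 1.29.

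Against control, the pretreated cells were lower in most of the 10 genes although they had received FAC. Hepatocyte markers were lower in the same comparisons, 10 of 10 in Lip-1+FAC (median −0.539) and 8 of 10 in MT+FAC (median −0.462), and their part in the result was not tested. In Lip-1+FAC, 1 gene was higher (15.4% of all genes) and 7 were lower (14.8%), with a median log2 difference of −0.70. Pgf was lower by 2.77-fold, Egln3 by 2.12-fold, Bnip3 by 2.09-fold and Adm by 2.05-fold, and Pdk1, Igfbp1 and Vegfa by 1.66-fold, 1.59-fold and 1.56-fold. Hif1a was the gene that was higher, by 0.24 on the log2 scale (SE 0.0724), and it did not pass without control replicate 1 (0.21), without Lip-1+FAC replicate 2 (0.22) or with offsets for GC content and length (0.12). Igfbp1 did not pass without control replicate 3, at −0.55 in place of −0.67.

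In MT+FAC against control, 0 genes were higher (9.71%), 0 unadjusted and by DESeq2 as well, and 7 were lower (10.1%), with a median of −0.53. Bnip3 was lower by 1.95-fold, Pgf by 1.75-fold, Egln3 by 1.53-fold, Pdk1 by 1.51-fold and Igfbp1, Adm and Vegfa by 1.46-fold, 1.44-fold and 1.36-fold. The count of 7 fell to 4 without control replicate 1, when Adm (−0.46), Egln3 (−0.54) and Igfbp1 (−0.46) did not pass. It also fell to 4 without MT+FAC replicate 3, when Adm (−0.48), Egln3 (−0.58) and Vegfa (−0.38) did not pass. Without control replicate 3, Adm (−0.48) and Igfbp1 (−0.43) did not pass. Igfbp1 also failed to pass without MT+FAC replicate 1 (−0.43) or 2 (−0.57), and with the replicate number as a block (−0.54). Ndrg1 was at −0.19 with an interval of −0.37 to −0.01, although its unadjusted edgeR p was 0.0551. It passed only when MT+FAC replicate 2 was left out (−0.29). Ndrg1 in Lip-1+FAC against control was −0.04, with an interval of −0.22 to 0.14.

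Levels per length, in CPM per kilobase of exon (RPKM), allow the genes to be compared with each other. In control cells Bnip3 was highest at 215 ± 38.2 RPKM (SD, n = 3), above Adm at 125 ± 14.5, and its libraries did not overlap those of Adm. Adm overlapped Igfbp1 at 108 ± 24.6 RPKM, and Igfbp1 overlapped Vegfa at 74.4 ± 13.7. Pgf at 37.8, Ndrg1 at 33.9, Egln1 at 30 and Egln3 at 24.9 RPKM followed, each overlapping its neighbour. Pdk1 at 17.8 ± 1.48 and Hif1a at 11.9 ± 0.707 RPKM closed the order, and Pdk1 overlapped neither Hif1a nor its upper neighbour Egln3. The wide range of Egln1, 15.5 to 38.9 RPKM, took in that of Pdk1, 16.9 to 19.5 RPKM.

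In FAC cells Igfbp1 led at 440 ± 24.5 RPKM, without overlap to Adm at 264 ± 23.4, which overlapped Bnip3 at 236 ± 31.1. Vegfa and Pgf were level at 111 ± 8.46 and 111 ± 13.9 RPKM. Hif1a was again lowest, at 15 ± 0.994 RPKM. In Lip-1+FAC cells Bnip3 led again at 103 ± 8.48 RPKM, and Pgf was at 13.7 ± 2.39 RPKM, within the range of Hif1a at 14.1 ± 0.451 and of Egln3 at 11.7 ± 2.22. In MT+FAC cells Bnip3 at 110 ± 6 RPKM overlapped Adm at 87.3 ± 15.2. Pdk1 had the lowest mean in both pretreated groups, at 10.8 ± 0.705 and 11.8 ± 1.44 RPKM, and overlapped Egln3 in Lip-1+FAC and Hif1a in MT+FAC.

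**Figure D3:**
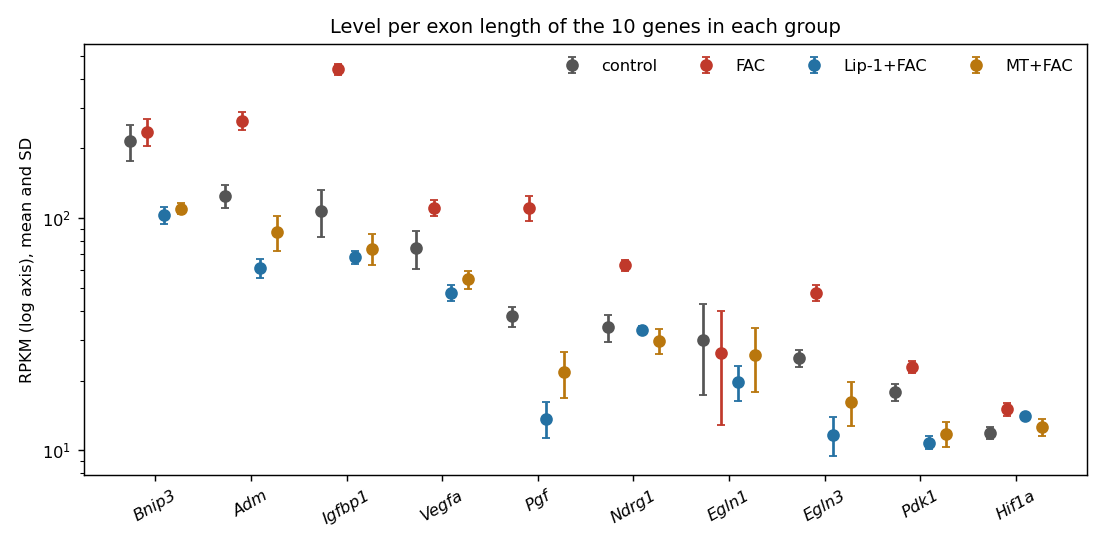
Mean level per exon length of each gene in each group (RPKM, log axis; bars: SD of 3 libraries), in the order of the control group. The place of Igfbp1 moves from the third in control to the first in FAC, and Pgf moves from the range of Vegfa in FAC to that of Hif1a in Lip-1+FAC.

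Across the 12 libraries the 10 genes did not all move as a block. Pearson's r of log2 CPM is given as a description over these libraries, which share the group differences. It was 0.996 for Pgf with Adm, 0.993 for Egln3 with Pgf and 0.989 for Egln3 with Adm. With the group means removed these values were 0.89, 0.904 and 0.796, and that of Pgf with Pdk1 was 0.956 within groups and 0.968 over all libraries. Igfbp1 with Pgf had 0.941 over all libraries and 0.17 within groups. Over all libraries Hif1a had at most 0.606 with any of the others, Ndrg1 in that case, and −0.541 with Egln1. With the group means removed, Hif1a had −0.221 with Ndrg1 and −0.767 with Egln1. Its values within groups ran from −0.787 with Vegfa to 0.497 with Igfbp1.

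Among all protein-coding genes with a mean of at least 5 CPM, the pattern of Pgf was most like those of Adm, Egln3 and Akap12 (r of 0.996, 0.993 and 0.992). For Adm the list was Pgf (0.996), Slc2a1 (0.995) and Ccn2 (0.989), and for Egln3 it was Pgf (0.993), Egfr (0.99) and Adm (0.989). For Igfbp1 it was Igfbp3 (0.985), Csrnp1 (0.985) and Cry1 (0.984), and for Vegfa it was Eif4a2 (0.981), Tent5a (0.977) and Mcm6 (0.975). Bnip3 was most like Serpina3m (0.993), Bsg (0.992) and Ndufa4l2 (0.988), and Pdk1 was most like Ces3b (0.996), Cadm1 (0.996) and Cd68 (0.993). Ndrg1 was most like Ampd3 (0.981), Piga (0.978) and Atp1b3 (0.976). For Hif1a the nearest were 8030462N17Rik (0.972), Usp6nl (0.957) and Arl5b (0.955), and for Egln1 they were Khdrbs3 (0.967), Ccdc6 (0.92) and Dock6 (0.878). Only Egln3, Pgf and Adm had another of the 10 genes among their 3 nearest.

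The rest of the pathway was read from lists of 132 further genes, 117 of them tested. In FAC against control 49 rose and 16 fell, with a median log2 fold change of 0.207, against 17.5% and 19.1% of all genes. In Lip-1+FAC against FAC 15 rose and 73 fell, with a median of −0.646, against 20.7% and 19.2% of all genes. In MT+FAC against FAC 16 rose and 72 fell, with a median of −0.481, against 21.2% and 19.7%. The count of 16 fell to 10 without MT+FAC replicate 1. Between MT+FAC and Lip-1+FAC, 6 were higher in MT+FAC (Slc2a1, Pfkfb3, Ccn2, Angptl4, Ppp1r3c and Gys1) and 0 lower, 33 and 6 at an unadjusted p under 0.05, and 15 and 1 by DESeq2, against 0.465% and 0.879% of all genes. Leaving out Lip-1+FAC replicate 1 or 2, or MT+FAC replicate 2 or 3, left 1, 2, 1 and 1 higher. These lists were also written with results of these data known, and the counts are not independent support for the 10 genes.

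The glycolytic targets fell as a whole list after pretreatment: all 18 tested fell in both pretreatment comparisons, beside 19.2% and 19.7% of all genes, with medians of −0.955 with Lip-1 and −0.703 with MT. In FAC against control 10 of the 18, or 55.6%, rose (17.5% of all genes) and none fell (19.1%), 12 and none at an unadjusted p under 0.05 and by DESeq2, and the 10 became 6 without FAC replicate 3. Hk1, a hexokinase that starts glycolysis, had 7.73, 5.7 and 6.43 CPM in control, 15.5, 17.1 and 27.2 in FAC, 1.67, 1.93 and 2.54 in Lip-1+FAC and 2.69, 3.96 and 4.32 CPM in MT+FAC libraries, 4 separate ranges. Its log2 fold change was 1.58 (SE 0.217; adjusted p = 3.89e-05) with FAC and −3.28 (SE 0.246; adjusted p = 8.58e-08) in Lip-1+FAC against FAC. Slc2a1, the glucose transporter GLUT1, rose by 0.90 with FAC (adjusted p = 5.96e-05) and was lower by −1.82 and −1.24 after Lip-1 and MT. Its level in MT+FAC was above that in Lip-1+FAC by 0.58 (SE 0.117; adjusted p = 0.0336). Slc2a1 was among the 6 genes called higher in that comparison, a count that fell to as few as 1 with a library left out. Hk2, another hexokinase, had log2 fold changes of 1.37, −2.62 and −1.54 in the 3 comparisons, all called. Pfkfb4, an enzyme that sets the level of a glycolytic activator, was at 0.65 with FAC (adjusted p = 0.192), −1.05 with Lip-1 and −1.45 with MT. The Lip-1 value of Pfkfb4 did not pass when FAC replicate 2 was left out (−0.84), nor when Lip-1+FAC replicate 1 (−1.11) or 2 (−0.81) was.

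Among HIF subunits and partners, the other alpha subunits differed in which comparisons passed the test. Epas1, which encodes HIF-2 alpha, had 75.6, 71.4 and 54.9 CPM in control, 58.6, 62.6 and 61.7 in FAC, 38.1, 45.8 and 46.3 in Lip-1+FAC and 49.7, 42.6 and 45.4 CPM in MT+FAC libraries. Control and FAC overlapped, at −0.14 (adjusted p = 0.316), and Epas1 fell by 0.49 with Lip-1 and 0.41 with MT against FAC (adjusted p = 0.00146 and 0.0053). Hif3a, an alpha subunit whose gene is induced by hypoxia, was at 2.51 to 3.89 CPM in control and 4.72 to 4.9 CPM in FAC libraries. Its log2 fold change was 0.61 with FAC (adjusted p = 0.0372) and −2.41 and −1.68 after Lip-1 and MT. The FAC value of Hif3a did not pass when control replicate 2 (0.47), control replicate 3 (0.59) or FAC replicate 1 (0.62), 2 (0.60) or 3 (0.62) was left out. Ep300 and Crebbp, the coactivators p300 and CBP, rose by 0.61 and 0.38 with FAC and did not pass in either pretreatment comparison. Besides Hif1a, 6 genes of this list were tested. With FAC 3 (50%) rose and 0 fell, beside 17.5% and 19.1% of all genes. After each pretreatment 1 (16.7%) rose against FAC and 3 (50%) fell, beside 20.7% and 19.2% with Lip-1 and 21.2% and 19.7% with MT.

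Of the degradation machinery, Vhl, the recognition subunit that binds hydroxylated HIF, was at 0.06 with FAC (adjusted p = 0.561) and fell by 0.41 with Lip-1 and 0.24 with MT (adjusted p = 0.000314 and 0.0182). Vhl was named for its role after its values were seen. Siah2, a ubiquitin ligase that acts on EGLN proteins, rose by 0.30 with FAC (adjusted p = 0.0034) and fell by 0.65 and 0.74 after Lip-1 and MT. Its relative Siah1a rose by 0.44 with FAC (adjusted p = 0.000529) and passed in neither pretreatment comparison. Hif1an, the asparaginyl hydroxylase FIH that limits HIF's use of coactivators, rose by 0.30 with FAC (adjusted p = 0.014), which did not pass without control replicate 3 (0.20) or FAC replicate 1 (0.22). Cul2, the scaffold of the VHL ligase, was at −0.18 with FAC (adjusted p = 0.0376), not called by DESeq2, without any 1 control library or without FAC replicate 1 (−0.12) or 2 (−0.18), and rose by 0.39 and 0.25 after Lip-1 and MT. Egln2, which encodes the third EGLN hydroxylase, PHD1, gave −0.03, 0.13 and 0.11 in the 3 comparisons, none called. So of the 3 EGLN genes, Egln3 alone passed the threshold.

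Of the 8 other genes of the VEGF family, 4 rose with FAC (50%, beside 17.5% of all genes), or 2 without control replicate 3, and after each pretreatment 2 rose (25%) and 3 fell (37.5%), beside 20.7% and 19.2% of all genes with Lip-1 and 21.2% and 19.7% with MT. The 2 that rose after MT became 1 without FAC replicate 2, MT+FAC replicate 1 or MT+FAC replicate 2. Flt1, the receptor of both VEGF-A and placental growth factor, had 14.8 to 16.9 CPM in control, 28.1 to 35 in FAC, 9.17 to 14.6 in Lip-1+FAC and 9.89 to 16.6 CPM in MT+FAC libraries. It rose by 1.06 with FAC (SE 0.181; adjusted p = 0.000406) and fell by 1.44 and 1.36 after Lip-1 and MT. Nrp2, a coreceptor of VEGF-C, rose by 1.05 with FAC (adjusted p = 0.0155), which did not pass without control replicate 1 (0.95) or 3 (0.88), and was at −0.28 and −0.09 after Lip-1 and MT, neither called. Nrp1, a coreceptor of VEGF-A, had 0.35, −0.93 and −0.87, all called. Vegfb, a ligand of FLT1, rose by 0.24 with FAC (adjusted p = 0.0445) with overlapping libraries, which did not pass when control replicate 2 (0.21) or 3 (0.22) or FAC replicate 2 (0.16) or 3 (0.24) was left out. It fell by 0.52 and 0.70 after Lip-1 and MT, and with offsets for GC content and length the Lip-1 value was −0.12 and not called. Vegfc, a ligand of lymphatic vessels at 1.1 to 1.44 CPM in the FAC and control means, rose by 1.24 with Lip-1 against FAC (adjusted p = 0.00174), opposite to Vegfa and Pgf. With MT it rose by 0.87 (adjusted p = 0.0195), which did not pass without FAC replicate 2 (0.76) or MT+FAC replicate 1 (0.78) or 2 (0.85). Flt4, the receptor of VEGF-C, was at 0.01 with FAC (adjusted p = 0.966) and rose against FAC by 0.67 with Lip-1 (adjusted p = 0.00993) and 0.77 with MT (adjusted p = 0.00372). It had 3.42 to 5.85 CPM in control, 4 to 5.31 in FAC, 6.76 to 8.37 in Lip-1+FAC and 6.66 to 9.93 CPM in MT+FAC libraries, and the pretreated ranges lay above both others. Vegfd, another ligand of lymphatic vessels, was below 1 CPM in every library and passed in none of the 3 comparisons. Kdr, the main endothelial VEGF receptor and an endothelial marker here, passed in none of the 3 comparisons, with 0.36, 0.61 and 0.28. Nrp1, Kdr and Flt4 were named for their roles after their values were seen. Flt1 is also expressed by endothelial cells, whose part in its values was not tested.

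Other angiogenic factors included Thbs1, thrombospondin-1, an inhibitor of angiogenesis, with 23.5 to 32.3 CPM in control, 70.6 to 103 in FAC, 5.79 to 9.33 in Lip-1+FAC and 10.7 to 23.1 CPM in MT+FAC libraries. Its log2 fold changes were 1.59, −3.43 and −2.24, with adjusted p of 0.00167, 1.96e-05 and 0.000225. Ccn2, connective tissue growth factor, gave 1.20, −2.35 and −1.74, and in MT+FAC against Lip-1+FAC it was higher by 0.62 (adjusted p = 0.047). It was among the 6 genes called higher there, a count that fell to as few as 1 with a library left out. Ccn1, a matrix protein of the same family, rose by 0.99 with FAC and fell by 0.70 with Lip-1 and 0.43 with MT, the last not passing without FAC replicate 2 (−0.37). Angptl4, a lipoprotein lipase inhibitor that hypoxia induces in many cells, went the other way with FAC, at −0.99 (adjusted p = 4.36e-09). It was at 0.01 (adjusted p = 0.902) in Lip-1+FAC against FAC and 0.63 (adjusted p = 7.17e-07) in MT+FAC against FAC, and it was higher in MT+FAC than in Lip-1+FAC by 0.62 (adjusted p = 5.72e-05).

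Among the relatives of single genes, Igfbp3 and Igfbp2, both binding proteins of insulin-like growth factors, rose with FAC by 1.48 and 0.58 and fell by 2.10 and 1.80 with Lip-1 against FAC, as Igfbp1 did. Igfbp4 went the opposite way in all 3 comparisons, with −0.80, 1.02 and 0.94 and adjusted p of 1.33e-06, 8.1e-08 and 2.69e-07. Igfbp5, below 1 CPM in every library, passed in none of the 3. Bnip3l, a mitophagy receptor related to Bnip3, was at 0.18 with FAC (interval 0.04 to 0.32; adjusted p = 0.0617) and fell by 0.59 with Lip-1 and 0.55 with MT. Of the 3 BNIP relatives tested, edgeR called 0 with FAC, 1 was higher at an unadjusted p under 0.05 and DESeq2 called 1. Bnip1 and Bnip2 passed in none of the 3 comparisons. Pdk3 and Pdk4, kinases of the same family as Pdk1, rose by 1.01 and 0.97 with FAC and fell by 1.74 and 0.87 with Lip-1, and with MT they fell by 1.27 and 1.16. Pdk2 fell by 0.27 with FAC (adjusted p = 0.00171), by 0.18 with Lip-1 (adjusted p = 0.0229) and by 0.15 with MT (adjusted p = 0.0465). The Lip-1 value of Pdk2 did not pass when FAC replicate 2 (−0.165) or 3 (−0.158) or Lip-1+FAC replicate 1 (−0.152) or 3 (−0.169) was left out, nor the MT value when FAC replicate 2 (−0.141) or 3 (−0.134) or MT+FAC replicate 1 (−0.179) or 3 (−0.104) was. Pdp1, a phosphatase that reverses their action, rose by 0.80 with FAC (adjusted p = 1.97e-06) and passed in neither pretreatment comparison. Ndrg2 and Ndrg3, relatives of Ndrg1, fell with FAC by 0.27 and 0.52. After MT they rose against FAC, by 0.19 (adjusted p = 0.015) and 0.55 (adjusted p = 0.000653), where Ndrg1 was lower, and the value of Ndrg2 did not pass without FAC replicate 2 (0.14) or MT+FAC replicate 1 (0.16). After Lip-1 Ndrg2 was at −0.003 (adjusted p = 0.972) and Ndrg3 rose by 0.36 (adjusted p = 0.0139), which did not pass when FAC replicate 2 (0.31) or Lip-1+FAC replicate 1 (0.30) was left out.

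The list of other hypoxia targets, which includes matrix enzymes, had 29 genes tested, of which 13 (44.8%) rose and 4 (13.8%) fell with FAC, beside 17.5% and 19.1% of all genes. Without control replicate 2, control replicate 3 or FAC replicate 2, the 13 became 8. After Lip-1, 23 of the 29 (79.3%) fell against FAC and 1 (3.45%) rose, beside 19.2% and 20.7% of all genes. After MT 21 (72.4%) fell and 3 (10.3%) rose, beside 19.7% and 21.2%, and the 3 became 1 without FAC replicate 2 or MT+FAC replicate 1. Lox, a collagen cross-linking enzyme, had 1.48, −2.32 and −2.12 in the 3 comparisons (adjusted p = 8.17e-06, 1.55e-07 and 4.62e-07). Wsb1, a subunit of a ubiquitin ligase, rose by 1.07 with FAC and fell by 0.46 and 0.66. Ppp1r3c, a regulator of glycogen synthesis that hypoxia induces in many cells, went the other way with FAC, from 4.46 to 6.83 CPM in control to 2.59 to 2.79 CPM in FAC libraries, at −1.13 (adjusted p = 0.000212). It fell further with Lip-1, by 0.82 (adjusted p = 0.00591), and was at 0.08 with MT (adjusted p = 0.773). Adora2b, an adenosine receptor, rose by 1.00 with FAC (adjusted p = 0.0251) and fell by 2.50 and 1.66. Its FAC value did not pass without control replicate 1 (1.00), 2 (1.08) or 3 (0.92), or without FAC replicate 2 (0.96) or 3 (1.00).

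Of the 10 mitochondrial and cell fate targets tested, 4 (40%) rose and 1 (10%) fell with FAC, beside 17.5% and 19.1% of all genes. After Lip-1 8 (80%) fell and 1 (10%) rose, beside 19.2% and 20.7%, and after MT 9 (90%) fell and 1 (10%) rose, beside 19.7% and 21.2%. The 4 became 1 without control replicate 2 or FAC replicate 3, and 2 without control replicate 3. Lonp1, a protease of the mitochondrial matrix, had 331 to 335 CPM in control, 430 to 460 in FAC, 286 to 306 in Lip-1+FAC and 274 to 320 CPM in MT+FAC libraries, with log2 fold changes of 0.40, −0.57 and −0.57, all called. Fam162a rose by 0.34 with FAC (adjusted p = 0.0249), which did not pass without control replicate 2 (0.26) or FAC replicate 3 (0.21), and fell by 1.18 and 1.15. Fundc1, a mitophagy receptor, was the gene that fell with FAC and rose after each pretreatment, by −0.44, 0.38 and 0.35. Its FAC value did not pass without control replicate 1 (−0.42) or FAC replicate 1 (−0.34). The Lip-1 value of Fundc1 did not pass without FAC replicate 1 (0.29) or 2 (0.38) or Lip-1+FAC replicate 1 (0.35) or 2 (0.28), nor the MT value without FAC replicate 1 (0.25) or 2 (0.36) or MT+FAC replicate 1 (0.39) or 3 (0.24). Bhlhe41, a transcriptional repressor, was below 1 CPM in every library, at 1.47 with FAC (adjusted p = 0.0408), and did not pass by DESeq2, without any 1 control library or without FAC replicate 2 (1.42) or 3 (1.16).

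Of the iron and heme targets, 2 of 7 rose (28.6%, beside 17.5% of all genes) and 5 fell (71.4%, beside 19.1%) in FAC against control, or 3 fell without FAC replicate 2. After Lip-1 4 rose (57.1%, beside 20.7%) and 2 fell (28.6%, beside 19.2%) against FAC, with a median of 0.177, and after MT 3 rose (42.9%, beside 21.2%) and 2 fell (28.6%, beside 19.7%). The 2 that fell after Lip-1 became 1 without FAC replicate 1, Lip-1+FAC replicate 1 or Lip-1+FAC replicate 2. Hmox1, heme oxygenase 1, rose from 270 to 341 CPM in control to 2500 to 2600 CPM in FAC libraries, a log2 fold change of 3.10 (SE 0.094; adjusted p = 7.2e-12). It fell by 0.79 with Lip-1 (adjusted p = 2.85e-06) and 1.02 with MT (adjusted p = 3.24e-07) against FAC, to 1440 to 1530 and 1100 to 1410 CPM, and so stayed above all control libraries, where most of the 10 genes were below them. Tfrc, the transferrin receptor, whose messenger is stabilised when iron is low, fell from 59.6 to 74 CPM to 20.2 to 27.8 CPM, by 1.42 (SE 0.116; adjusted p = 7.63e-08). In the pretreated groups Tfrc was at 17 to 23.2 CPM, below all control libraries, with log2 fold changes against FAC of −0.28 with Lip-1 (adjusted p = 0.0673) and −0.48 with MT (adjusted p = 0.00382). With FAC, Tfrc thus went opposite to Pgf, Adm and Egln3. Epo, erythropoietin, a classic HIF target, had 1.03 to 1.71 CPM in control and 0.345 to 0.621 CPM in FAC libraries, at −1.40 (adjusted p = 0.0101), which did not pass without control replicate 1 (−1.19) or FAC replicate 2 (−1.13). After Lip-1 it was at −1.31 against FAC (adjusted p = 0.0399), which did not pass without FAC replicate 1 (−1.14) or 3 (−1.18) or any 1 Lip-1+FAC library, and after MT it was at −0.23 (adjusted p = 0.699). Slc40a1, the iron exporter ferroportin, rose by 1.12 with FAC (adjusted p = 1.12e-10), from 592 to 611 CPM to 1210 to 1360 CPM. Its later values were 0.18 with Lip-1, which did not pass without FAC replicate 3 (0.13), and 0.01 with MT.

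**Figure D4:**
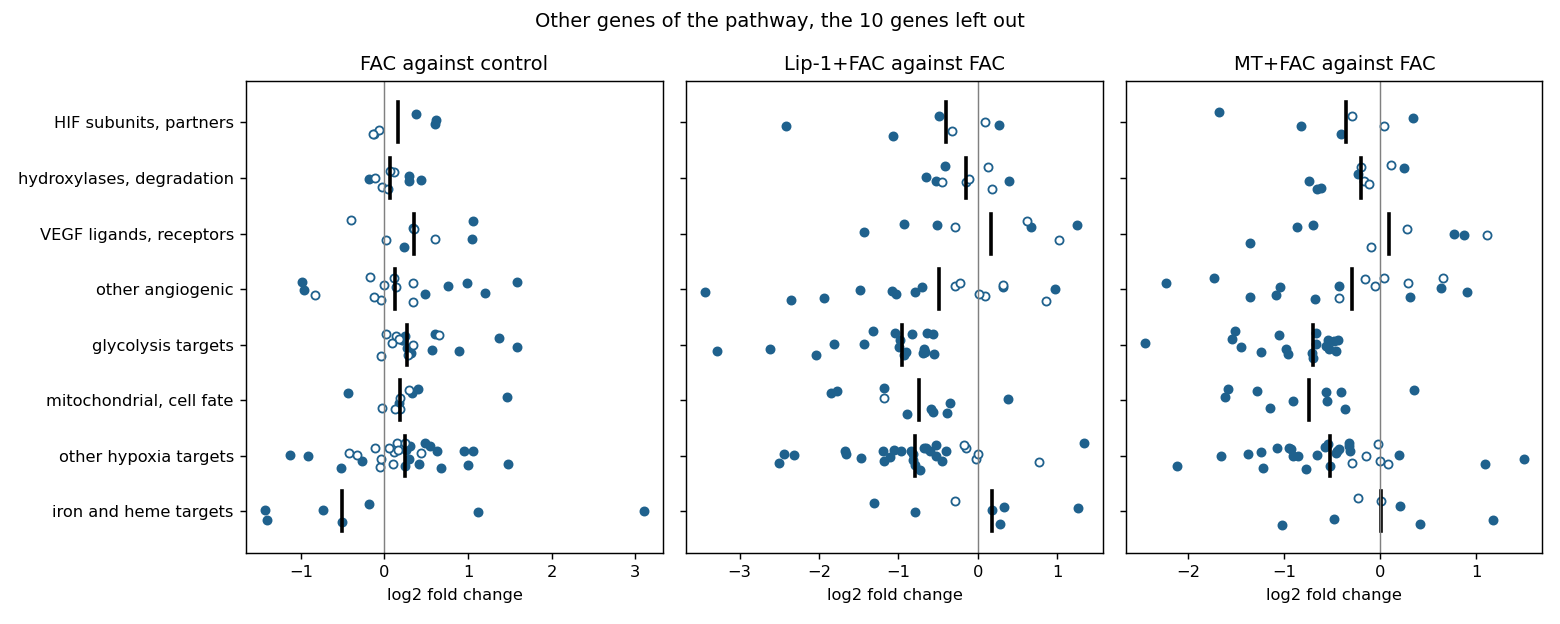
Log2 fold changes of the other tested genes of the pathway by list in 3 comparisons (filled: passed the threshold; open: did not; black bar: median of the list; vertical spread only separates points). All 18 glycolysis targets lie left of 0 and are filled in both pretreatment comparisons, and the iron and heme targets have a median below 0 in FAC against control.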

How the data were processed

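The authors deposited, for each of the 12 libraries, whole-number read counts for every gene in 3 count columns, without normalization. Per the submitters' processing notes they were made with STAR on GRCm38; its version and the gene annotation are not given in the sources used here. Per the labels' protocols, the SMART-Seq v4 kit was used for cDNA; it does not mark strand, and so the unstranded column was used. Reads that map to several places count towards no gene. Between 75.8% and 81.2% of the reads listed were assigned to genes, and the other lines, which name no gene, stayed out. PCR reads without molecular identifiers are not independent molecules.

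Of the 55487 identifiers, 55227 were found in GENCODE M21, which gave names, positions, exon lengths and GC content. Genes were tested with edgeR 4.0.16 under R 4.3.3, by quasi-likelihood (filterByExpr, TMM, robust), on 12 libraries with 4 group means and no covariate, adjusted by Benjamini-Hochberg over 13535 genes at 0.05. The SE is the absolute log2 change over the root of F, and an interval given as 95% is 1.96 SE on either side. That multiplier is of the normal distribution and ignores the limited degrees of freedom of the F test. The intervals are therefore too narrow, and can leave out 0 where the test's unadjusted p is above 0.05. CPM and RPKM were computed from the counts, and r from log2 CPM with a prior count of 2. The method was tested on simulated data. Copies were searched with blastn 2.17.0.

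The members and lists were chosen with earlier results of these data known. From each list the text names up to 4 tested genes with the largest absolute change in FAC against control, and relatives of the members. Vhl, Nrp1, Kdr and Flt4 were added for their roles after their values were seen. The 6 list genes called between MT+FAC and Lip-1+FAC are named as well. For each member the 3 genes most like it are given. Alternatives changed scaling, filter, test (DESeq2 1.42.0), libraries, counting column, depth, GC and length offsets and the replicate block, and left out each library.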

Additional observations from a re-analysis of the deposited data

How the results depend on the processing

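The numbers of the 10 genes called were recomputed under every alternative. In MT+FAC against Lip-1+FAC the count of 0 became 2 without a filter on low counts and 3 with DESeq2, and leaving out a library gave 0 to 1. In MT+FAC against control leaving out a library gave 4 to 7. In the other 4 comparisons the counts stayed within 1.5 times of the reported ones. Of the single values, 336 with a library left out and 587 under other alternatives kept direction and call. Values that changed sign had not been called. Ndrg1 in Lip-1+FAC against control was 0.009 with the stranded columns summed, and Egln1 in MT+FAC against FAC was 0.003 at equal depth. With a library left out, Ndrg1 in Lip-1+FAC against control ran from −0.093 to 0.081 and Bnip3 in FAC against control from −0.012 to 0.213. Egln1 ran from −0.676 to 0.071 in FAC against control, −0.672 to 0.068 in Lip-1+FAC against FAC, −0.289 to 0.464 in MT+FAC against FAC and −0.525 to 0.02 in MT+FAC against control. Igfbp1 in MT+FAC against control did not pass without a filter (−0.522), with only the compared libraries (−0.545) or with GC and length offsets (−0.382). The cause was not tested.

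The counts of the pathway lists were recomputed after the data were seen. Those called higher in MT+FAC against Lip-1+FAC, 6 as reported, were 18 without a filter, 10 with only the compared libraries and 15 with DESeq2, and 1 to 8 with a library left out. Called lower were 1 without a filter and 1 with DESeq2. With a library left out, MT+FAC against control gave 9 to 13 higher and 37 to 55 lower, in place of 14 and 56, and MT+FAC against FAC 10 to 15 higher in place of 16. No called value of a named list gene changed sign, and 71 with a library left out and 30 under other alternatives lost the call.

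The replicate numbers showed no sign of pairing the samples. Deviations of same-numbered libraries correlated between −0.249 and 0.164, those of others between −0.196 and 0.221, and 4 of 12 libraries were most like a library of their own number. With 3 libraries per group this check cannot exclude pairing, and the labels do not say how replicates relate. With the replicate block the counts over the 10 genes in the 6 comparisons, in the order of the report, were 8, 8, 9, 0, 8 and 6, the lost gene being Igfbp1 in MT+FAC against control. Depth limits genes with few reads, such as Kdr, with 11 to 78 counts per library.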
